A study of Mus musculus with 2 samples.

Results

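A set of 10 genes that act on bone mineral or belong to the Fam20 kinase family was followed in cultured mouse osteoblasts, the cells that lay down bone. They are Fam20a, Fam20b, Fam20c, Ibsp, Dmp1, Alpl, Enpp1, Phospho1, Smpd3 and Phex, chosen by name. Every probe set (a group of short probes against 1 transcript) that the array's annotation gives to exactly 1 of them was taken. This found 18 probe sets for 8 of the 10 genes, of 18193 genes with such a probe set in all. Enpp1 had no probe set under its name and is not analysed here, and the only probe set that names Phospho1 also names Zfp652.

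Both cultures were primary osteoblasts of CD1 mice aged 7 days, isolated from calvarial bone (the roof of the skull). They were grown in DMEM with 10% fetal bovine serum and then kept for 24 h without serum, in 0.25% bovine serum albumin. The DMSO culture next received the vehicle for 24 h, and the other received 2 µM PP1 for 24 h. PP1 is an inhibitor of the kinase c-Src, its relatives and some other kinases. The labels do not say how many animals or cultures stand behind an array. The comparison asks which of these transcripts differ between PP1 and vehicle. There was 1 Affymetrix array for each condition, so no test was possible, no p-value is given, and every value describes these 2 arrays.

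Bone hardens when calcium phosphate crystals form in and around matrix vesicles that bud from osteoblasts and then spread along collagen. Alkaline phosphatase (Alpl) and the phosphatase Phospho1 supply phosphate, while pyrophosphate, made by Enpp1, blocks crystal growth until Alpl breaks it down. Fam20c is the secretory pathway kinase that phosphorylates matrix proteins such as Ibsp (bone sialoprotein) and Dmp1, Fam20a is a pseudokinase that activates it and is best known from tooth enamel, and Fam20b phosphorylates xylose in the linkage region of proteoglycans.

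Fam20a and Ibsp were much lower with PP1, whereas Fam20b, Fam20c and Alpl lay within 1.5-fold. Smpd3 also lay within 1.5-fold, but so close to the lowest signal read that a drop could not have been seen. Fam20a was 7.08-fold lower and Ibsp 4.22-fold lower. These values follow scaling of the PP1 array to the same trimmed mean as the DMSO array, so each is relative to the bulk of genes. Without scaling, the median log2 ratio of all genes was -0.71. The 18 bacterial hybridization controls had a median log2 ratio of 0.09 as deposited, so the lower signals were those of mouse probe sets. The cause of this difference was not tested. In cultures, fewer cells of a type and less RNA per cell cannot be told apart. Of the 6 measured genes, 2 were at least 2-fold lower and 0 at least 2-fold higher. Over all 12133 measured genes, 1.55% were at least 2-fold lower and 3.02% at least 2-fold higher. The 4 other genes lay within 1.5-fold, where 7.38% of all genes were at least 1.5-fold lower and 10.6% at least 1.5-fold higher.

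The promoters of these genes are shown because Fam20a and Ibsp were lower together while the 2 relatives of Fam20a were not. RefSeq windows of GRCm38.p6, from 250 bases before to 50 after a start site, were found for 9 of the 10 genes, all but Smpd3. Each window is printed on the gene's own strand, and capitals mark every match to the motifs searched on both strands. Fam20a lies at chr11:109722189-109722488 on the minus strand, from a start site 925 bases inside the outer end of the gene. Ibsp lies at chr5:104299037-104299336 on the plus strand, Fam20b at chr1:156718861-156719160 on the minus strand (start site 185 bases inside) and Fam20c at chr5:138754831-138755130 on the plus strand.
Fam20a: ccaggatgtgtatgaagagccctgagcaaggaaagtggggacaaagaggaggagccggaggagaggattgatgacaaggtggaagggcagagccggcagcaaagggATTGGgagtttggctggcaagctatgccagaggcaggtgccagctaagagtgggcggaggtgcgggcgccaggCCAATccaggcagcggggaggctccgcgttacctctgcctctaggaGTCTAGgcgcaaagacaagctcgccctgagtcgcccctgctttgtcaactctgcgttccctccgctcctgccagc
Ibsp: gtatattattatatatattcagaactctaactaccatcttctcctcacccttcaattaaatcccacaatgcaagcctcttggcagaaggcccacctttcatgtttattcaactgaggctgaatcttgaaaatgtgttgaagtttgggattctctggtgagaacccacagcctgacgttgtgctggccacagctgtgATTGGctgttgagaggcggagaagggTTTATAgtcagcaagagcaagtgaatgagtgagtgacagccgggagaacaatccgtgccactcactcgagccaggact
Fam20b: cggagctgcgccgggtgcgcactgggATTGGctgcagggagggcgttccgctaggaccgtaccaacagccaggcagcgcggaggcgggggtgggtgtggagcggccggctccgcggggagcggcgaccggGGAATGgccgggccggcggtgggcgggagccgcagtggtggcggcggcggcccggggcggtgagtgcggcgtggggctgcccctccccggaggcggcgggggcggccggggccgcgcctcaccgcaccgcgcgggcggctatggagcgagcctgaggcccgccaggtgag
Fam20c: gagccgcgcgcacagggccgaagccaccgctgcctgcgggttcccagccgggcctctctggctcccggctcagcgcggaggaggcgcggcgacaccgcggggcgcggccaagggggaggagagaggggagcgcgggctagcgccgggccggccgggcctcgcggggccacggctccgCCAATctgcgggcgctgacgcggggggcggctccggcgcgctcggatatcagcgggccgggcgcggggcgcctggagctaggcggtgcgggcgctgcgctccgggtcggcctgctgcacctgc

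The motifs were the cyclic AMP element (TGACGTCA), AP-1 (TGANTCA), RUNX (TGTGGT), TEAD (GGAATG), the homeodomain core (TAATTA), the CCAAT box (CCAAT), a SMAD site (GTCTAG) and the TATA box (TATAAA). The marked motifs of different kinds do not overlap in the windows printed. The Fam20a window held 2 CCAAT boxes, starting at -144 (reversed) and -71 from the start site, and 1 SMAD site at -25. Of all 32851 windows of this length, 37.4% held a CCAAT box and 8.37% the SMAD letters. The Ibsp window held a reversed CCAAT box at -54 and a reversed TATA box at -28, the latter found in 13.6% of all windows. This inverted pair is a known feature of the bone sialoprotein promoter. Fam20b held a TEAD match at -120 (14.7% of windows) and a reversed CCAAT box at -224, and Fam20c a CCAAT box at -73. No AP-1, RUNX, cyclic AMP or homeodomain letters were in these 4 windows, which occurred in 7.81%, 16.8%, 1.79% and 5.29% of all windows. The windows also differed in composition. The GC share was 46.3% for Ibsp and 61.7% for Fam20a, against 80.3% for Fam20b and 80.7% for Fam20c, where the median window had 52.7%. Alpl, which was not lower, had windows of 70% and 54.3%, the latter between those of Ibsp and Fam20a. Among the windows not printed, that second Alpl window held reversed TATA box letters at -192. A Dmp1 window held the SMAD letters at -180. The CCAAT letters were in all 4 windows printed, those of the lower genes and those of the others.

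The Fam20 family came apart on these arrays. Fam20a had 1 probe set, with a scaled signal of 390.6 with DMSO and 55.1 with PP1. Both signals were above the floor of 31.7, the median signal of all probe sets, under which values were not read. The log2 ratio of -2.82, PP1 minus DMSO, was the second lowest of all 12133 measured genes. Among 2360 genes of like mean signal (within 0.5 on the log2 scale), whose ratios had an SD of 0.53, only Fam20a and 1 other gene lay as low.

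Fam20b had 3 probe sets. The brightest read 538.6 with DMSO and 609.7 with PP1, a log2 ratio of 0.18. A dim one read 34.8 and 61.0 (0.81), and the third was under the floor on both arrays, at 23.5 and 20.5. By its brightest probe set the kinase that marks proteoglycan linkers was 1.13-fold higher, and its probe sets gave different sizes. As deposited, where most mouse signals were lower on the PP1 array, that ratio was -0.57.

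Fam20c, the kinase of secreted phosphoproteins, had 2 probe sets above the floor, and they gave nearly the same ratio. They read 255.6 and 232.1 (-0.14) and 106.4 and 92.4 (-0.20), DMSO first. The remaining one was under the floor on both arrays, at 19.8 and 4.14. As deposited, the ratio of the brightest Fam20c probe set was -0.89. The log2 ratio of Fam20a minus that of Fam20c was -2.69, its distance from Fam20b was larger still, and Fam20b minus Fam20c was 0.32. For comparison, the SD of the ratio between probe sets of the same gene was 0.41 over 4745 genes. It says nothing of the variation between cultures. The lower Fam20a signal rests on a single probe set, so no second probe set bears on it.

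**Figure D1:**
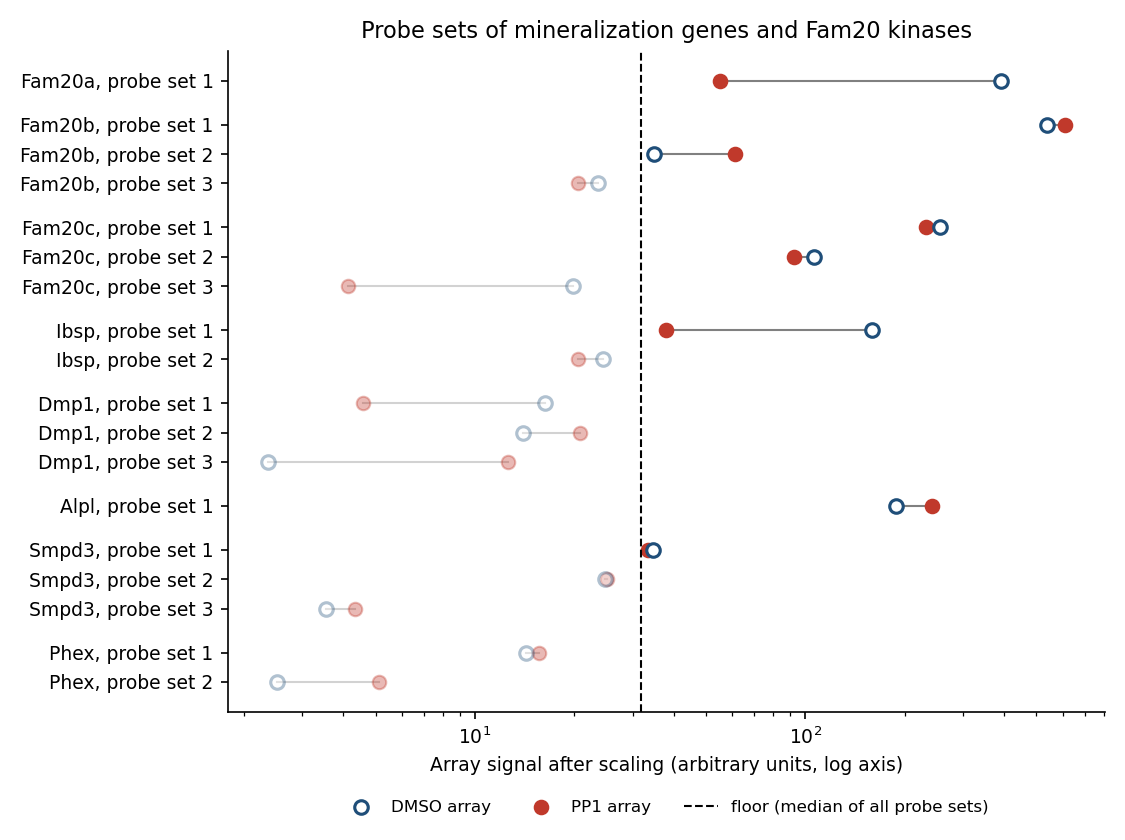
Scaled array signal (log axis, arbitrary units) of the 18 probe sets on the DMSO array (open circles) and the PP1 array (filled circles), with 1 array each and no error bars. The dashed line is the floor of 31.7, and pale symbols are the 10 probe sets under it on both arrays. The wide gaps to the right of the floor are those of Fam20a (390.6 to 55.1) and Ibsp (159.1 to 37.7).

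The 3 genes with a pattern most like Fam20a, by nearest log2 ratio among 4325 genes with a DMSO signal within 2-fold of its own, were Sertad4 (509.5 to 73.2, log2 ratio -2.80), Ces5a (322.9 to 48.2, -2.74) and Zfp469 (414.7 to 84.0, -2.30). Sertad4 and Ces5a lay within 0.08 of the ratio of Fam20a and Zfp469 lay 0.52 away, and likeness here rests on 2 arrays only.

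Of the matrix phosphoproteins, Ibsp was measured and Dmp1 was not. Ibsp, which binds collagen and seeds hydroxyapatite, read 159.1 with DMSO and 37.7 with PP1 by the probe set above the floor. The PP1 signal was close to the floor. Its log2 ratio of -2.08 was 17th from the lowest of all measured genes, and 4 of 1833 genes of like mean signal, Ibsp included, lay as low. The other Ibsp probe set, against the same transcript record, was under the floor on both arrays, at 24.4 and 20.6, and gave no reading of the difference.

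Dmp1, an osteocyte matrix protein, had 3 probe sets, all under the floor on both arrays. Their DMSO signals ran from 2.36 to 16.3 and their PP1 signals from 4.60 to 20.7, and without a floor their ratios went both ways, from -1.83 to 2.42. No direction can be read from such signals. In the gene table, Dspp, Dmp1, Ibsp, Mepe and Spp1 follow one another on chromosome 5 with no other protein-coding gene between them. Dspp (1.92 and 1.05) and Mepe (8.73 and 28.9) were under the floor on both arrays, and Spp1 is not analysed here. Ibsp was therefore the only gene with a reading among those of this row that were analysed.

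Of the enzymes of phosphate supply, only Alpl gave a reading well above the floor, and it lay within 1.5-fold. Alpl, the tissue-nonspecific phosphatase of the osteoblast surface, read 187.5 with DMSO and 242.3 with PP1, a log2 ratio of 0.37, or 1.29-fold. This is less than the SD between probe sets, and 79.8% of measured genes lay below it. As deposited the ratio was -0.38. Smpd3, the neutral sphingomyelinase whose loss leaves bone poorly mineralized, read 34.7 and 33.3 by its 1 probe set above the floor (-0.06). The other 2, at 24.7 and 25.0 and at 3.54 and 4.33, were under it. So close to the floor, a lower Smpd3 signal could not have been seen.

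Phospho1 and Phex gave no usable reading. The probe set that Phospho1 shares with Zfp652 read 26.0 with DMSO, under the floor, and 46.4 with PP1. It was thus at least 1.46-fold higher, from either gene. Phex, the endopeptidase lost in X-linked hypophosphataemia, had 2 probe sets under the floor on both arrays, at 14.3 and 15.7 and at 2.52 and 5.11.

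**Figure D2:**
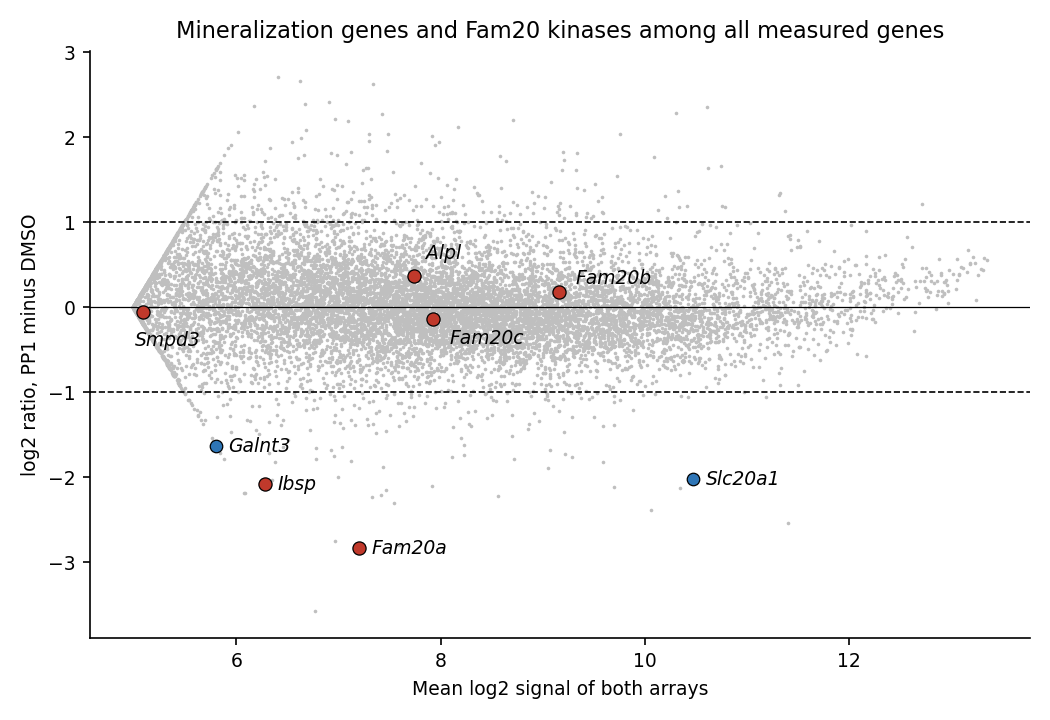
The log2 ratio of PP1 to DMSO against the mean log2 signal of both arrays, 1 grey point for each of 12133 measured genes. The 6 measured mineralization and Fam20 genes are red and Slc20a1 and Galnt3 are blue, and dashed lines mark 2-fold. Fam20a (-2.82) and Ibsp (-2.08) lie far below the bulk, and the other 4 red points lie inside it.

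The 11 lists of genes around these pathways held 132 further genes, of which 99 were measured. Of those, 4 were at least 2-fold lower and 3 at least 2-fold higher, or 4.04% and 3.03%. Their median log2 ratio of 0.02 was close to the 0.01 of all measured genes. The lists were chosen with earlier results of these data known.

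The secretory pathway kinases related to Fam20 had 10 measured genes of 13 named, with a median of -0.07. Fam20a was the only one past 2-fold by the probe set that stands for the gene. The Golgi-associated Gask1b came nearest on the lower side, at 1719 and 1111 (-0.63), with -1.03 by its second probe set. Fjx1 was at -0.45, Dipk1b at 0.74, and the extracellular tyrosine kinase Pkdcc at 0.11 by one probe set and -0.41 by another of almost the same brightness. The other 9 measured kinases of the list thus lay within 2-fold by the probe set that stands for each.

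Among Fam20c substrates and other matrix proteins, 8 of 20 named genes were measured and the median was 0.41. Ibsp was the only one of them at least 2-fold lower by the probe set that stands for the gene. The IGF binding proteins Igfbp5 (0.85, and 2.31 by its other probe set) and Igfbp3 (0.72, and 1.45 by its other) and apolipoprotein E (Apoe, 0.78) were on the other side. Stc2 was at 0.37, with 0.30 and -1.13 by its other probe sets. Osteonectin (Sparc) read 8747 and 11867 (0.44, its 3 probe sets from -0.18 to 0.82), and the mineralization inhibitor Mgp read 4889 and 4763 (-0.04). Of the 10 enamel genes named with Fam20a, 1 was measured, Fam83h, at 31.4 under the floor with DMSO and 56.9 with PP1, at least 1.80-fold higher. Amelx, Enam, Ambn, Amtn, Odam, Klk4, Mmp20 and Slc24a4 were under the floor on both arrays.

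Phosphate transport held the third low gene of these pathways. Slc20a1, the sodium-phosphate cotransporter PiT-1, read 2867 with DMSO and 710 with PP1 by its bright probe set, or 4.04-fold lower (-2.01). A dim probe set, 47.4 against 14.8, the latter under the floor, gave a bound of -0.58, and the third was under the floor on both arrays. The bright probe set, which the annotation gives to Slc20a1 alone, is of the kind marked as matching several transcripts. Without probe sets so marked, only the bound remains for Slc20a1. Its relative Slc20a2 read 468.9 and 345.6 (-0.44), with 1.19 by its other probe set. The phosphate exporter Xpr1 was at -0.58, its 5 measured probe sets running up to 0.45, and Pitpnc1 at 0.50, its 7 measured ones running from -0.24 to 1.14. Of the matrix vesicle annexins, Anxa6 was 3.32-fold higher, at 325.6 and 1079 (1.73). Its second probe set gave 1.75 and a dimmer one 0.42, while Anxa5 (-0.19), Anxa2 (0.18) and Anxa1 (0.21) were within 1.5-fold. The list had 11 of 13 genes measured and a median of -0.06, so a lower transporter and a higher annexin stood in a list that as a whole was near 0.

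The pyrophosphate and nucleotide genes had 9 of 12 measured, with a median of -0.03 and none past 2-fold. The pyrophosphate exporter Ank read 989.6 and 757.7 (-0.39), the cytosolic pyrophosphatase Ppa1 799.8 and 435.8 (-0.88), and the ectonucleotidase Nt5e 118.3 and 69.6 (-0.76). Enpp3, a relative of Enpp1, was dim, at 46.0 and 32.0 (-0.52).

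In the Phex and Fgf23 list, 9 of 15 genes were measured and the median was -0.13. Galnt3, which glycosylates and so protects Fgf23, read 97.9 with DMSO and 31.3, just under the floor, with PP1. It was at least 3.09-fold lower (-1.63) by its 1 probe set above the floor. Neprilysin (Mme) was at 0.73 (1.61 by its other probe set), Fgfr1 at 0.36, the protease Furin at -0.30, the vitamin D receptor Vdr at 0.02 and Pth1r at -0.23. Fgf23 itself was under the floor on both arrays, at 10.1 and 0.76.

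The proteoglycan enzymes around Fam20b had 15 of 16 genes measured and the lowest median, -0.25. Chsy3, a chondroitin synthase, was 2.60-fold lower, from 139.7 to 53.6. Of the enzymes that build the linkage region itself, B4galt7 was at -0.84 (-0.29 by its other probe set) and B3gat3 at 0.96. Csgalnact1, which starts chondroitin chains, was at 0.64. Sphingomyelin and phosphocholine genes had 14 of 15 measured and a median of 0.33. Smpd2, another neutral sphingomyelinase, was 2.68-fold higher by its 1 probe set, at 80.4 and 215.1. Smpd4 was at 0.94, its 4 probe sets running down to -0.57, the choline kinase Chkb at 0.88 and the sphingomyelin synthase Sgms2 at -0.73.

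**Figure D3:**
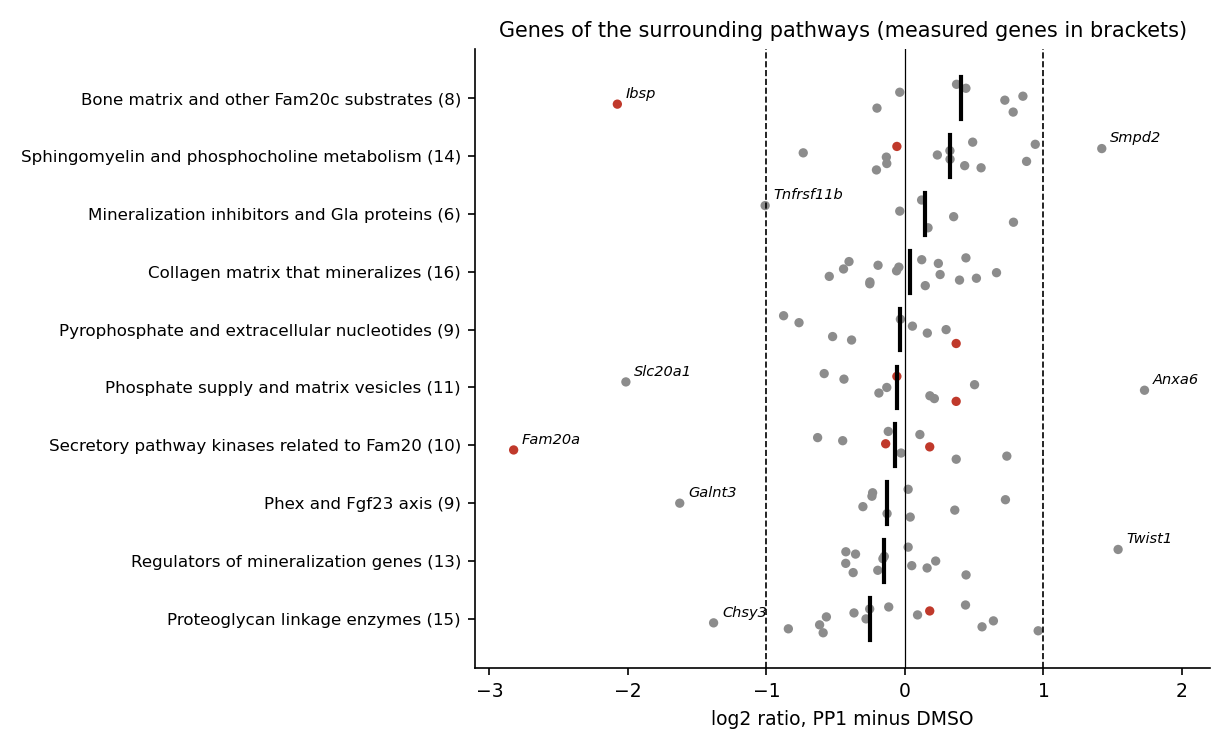
The log2 ratio of each measured gene in the 10 lists with more than 1 measured gene, with the list median as a black bar and the number of measured genes in brackets. Red points are the mineralization genes and Fam20 kinases, genes past 2-fold (dashed lines) are named, and some genes are in several lists. List medians run from -0.25 to 0.41, and Fam20a, Ibsp and Slc20a1 lie at or below -2.01.

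The regulators and the collagen matrix held no measured gene at least 2-fold lower by the probe set that stands for it. Of 16 regulators, 13 were measured with a median of -0.15. Sp7, a zinc finger factor needed for osteoblasts, was dim, at 71.6 and 53.3 (-0.43), and Dlx5, a homeodomain factor of bone, was at -0.20 (217.7 and 190.0). Atf4 was at 0.44 (-0.58 by its other probe set) and Foxc2 at -0.43. Twist1, which holds back osteoblast differentiation, was 2.91-fold higher, at 499.2 and 1450. Runx2 is not analysed here. The 16 measured genes of the collagen matrix had a median of 0.04 and none past 2-fold by the probe set that stands for each. By other probe sets, P4ha1 was at 1.77 (173.1 and 590.9) and Lox at -1.13 as a bound, against -0.19 and -0.06. Col1a1 read 7558 and 9931 (0.39) and Col1a2 7809 and 11166 (0.52), although the probe sets of Col1a2 ran down to -0.91. The proteoglycan decorin (Dcn) was at 0.66, osteomodulin (Omd) at -0.44 and Col5a1 at -0.55, with all 3 probe sets of Col5a1 from -0.63 to -0.53. Among 6 measured mineralization inhibitors and Gla proteins (median 0.14), osteoprotegerin (Tnfrsf11b) was 2.01-fold lower (932.4 and 463.3) and -0.63 by its other probe set, and the Gla protein Gas6 was at 0.78. The carboxylase Ggcx was at 0.35, and Fetub, under the floor with DMSO, at 0.17 as a bound.

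The cultures carried osteoblast markers, and most osteocyte markers were under the floor. All 6 osteoblast markers with a probe set were measured, of 10 named, with a median log2 ratio of 0.07, 3 above 0 and 3 below. Their summed signal was 16026 with DMSO and 21634 with PP1, mostly that of Col1a1 and Col1a2, while Ibsp, Sp7 and Pth1r were the 3 below 0. Ibsp and Alpl are also among the genes followed here, so the osteoblast median is not independent of them. Of 7 osteocyte markers, Sost, Dmp1, Mepe, Phex and Fgf23 were under the floor on both arrays. The 5 ameloblast markers were all under the floor too. Other cells were present, with all 11 macrophage markers measured (summed signal 15225 and 17735) and 8 of 9 cartilage markers (6285 and 5478). The macrophage markers had a median of 0.10, with 6 above 0, 5 below and Mrc1 at 1.11. The cartilage markers had a median of -0.21, with 2 above 0, 6 below and Acan at -1.18. Fibroblast and periosteum markers summed to 7139 with DMSO and 10879 with PP1, with 7 of 9 measured and a median of 0.99. They include Twist1, named above among the regulators. Adipocyte markers summed to 4191 and 7659, with all 5 measured above 0 and a median of 0.55. Skeletal muscle markers were dim, summing to 213.5 and 396.7, and all 5 measured of 7 were above 0 with a median of 0.66. Among them Des was at 1.43 and Myog at 1.37, the latter a bound. The 3 measured endothelial markers, at 90.2 and 131.2 in sum, had a median of 0.39. Of 9 osteoclast markers, 5 were measured with a median of -0.08, and the others were under the floor on both arrays. The part of these shifts in the lower Fam20a and Ibsp signals was not tested. For RNA quality, control probe sets at both ends of a transcript were compared. The log2 signal of the 3' end over the 5' end was 0.70 with DMSO and 0.19 with PP1 for Gapdh, 1.80 and 1.46 for Pcx, and 0.55 and 0.69 for Actb. The part of these differences was not tested either.

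**Figure D4:**
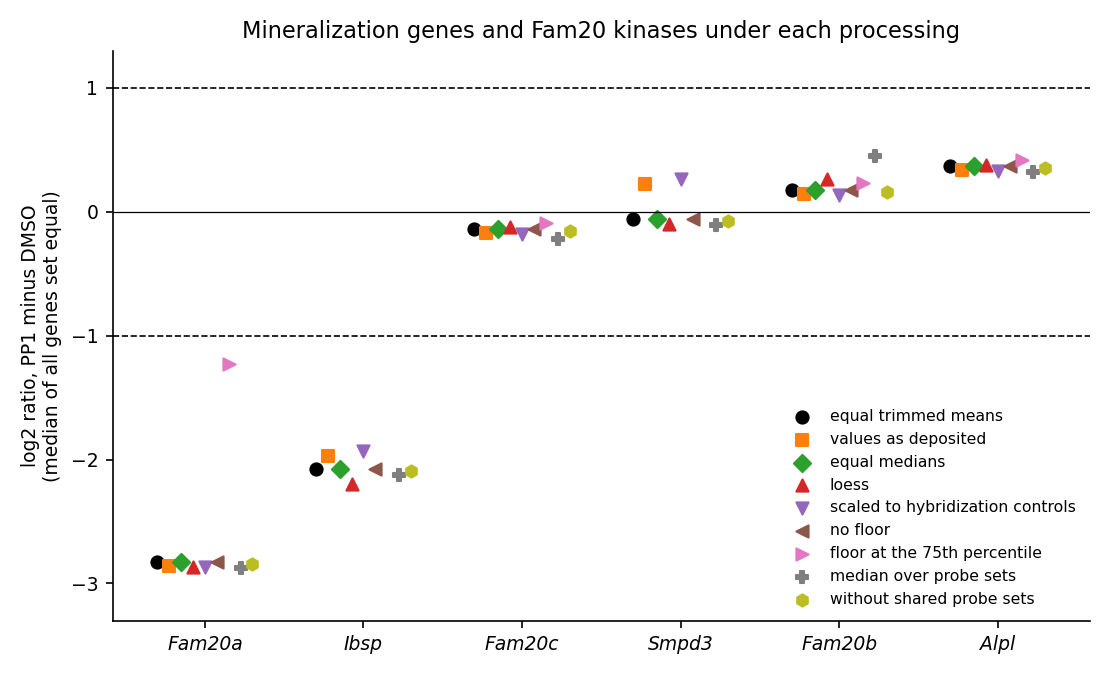
The log2 ratio of the 6 measured genes under the processing used above (black circles, equal trimmed means) and 8 alternatives, after setting the median of all genes equal. Dashed lines mark 2-fold. Fam20a lies between -2.87 and -2.82 except with the floor at the 75th percentile (-1.23), where Ibsp and Smpd3 have no value, and the other 4 genes lie inside 2-fold throughout. With a single probe set and medians set equal, most alternatives could hardly move Fam20a.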

How the data were processed

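The 2 arrays used were 1 for DMSO and 1 for PP1. The values are the deposited linear signal intensities, 1 for each of 45101 probe sets, made with MAS5 per the submitters' processing notes, whose version and scaling the labels do not give. The platform annotation gave each probe set its gene, and gene identifiers were looked up in a RefSeq gene table for current symbols (GRCm38.p6, also used for gene order); 34945 had 1 gene.

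PP1 signals were multiplied by 1.68 so that the means of 45037 mouse probe sets, without the lowest and highest 2%, were equal. Signals below 31.7 were set to that floor. A gene takes the values of its brightest probe set by mean log2 signal and counted as measured above the floor on at least 1 array. A ratio with 1 array under the floor is a bound. The steps were tested on simulated data in which only genes with a DMSO signal well above the floor were changed, so genes dim with DMSO were not tested. Named were all 10 genes, at most 4 genes from a list, those with the largest ratios in size, and the 3 most like Fam20a. Others were chosen after their values were seen. They were Sparc, Mgp, Stc2, Pkdcc, Slc20a2, the annexins, Vdr, Pth1r, Dlx5, Col1a1, P4ha1, Lox, single cell type markers and genes under the floor. The genes and lists were chosen with earlier results of these data known. The number of arrays limits the precision. Python 3.11.15, numpy 2.4.6, pandas 2.3.3 and statsmodels 0.14.6 were used.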

Additional observations from a re-analysis of the deposited data

How the results depend on the processing

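In all, 10 alternatives were run. Log2 ratios here are given after setting the median over all genes to that of the processing used, because it moved by -0.72 as deposited, by -0.80 with scaling to 18 bacterial hybridization controls and by -0.10 with equal medians. Of 46 values of the 6 measured genes under 8 alternatives, 45 stayed within 0.41 of the reported value. The exception was Fam20a with the floor at the 75th percentile, a bound of -1.23, because its PP1 signal is then under the floor. Ibsp and Smpd3 have no value there, so 1 in place of 2 of the genes was at least 2-fold lower. Fam20a and Ibsp stayed 2-fold lower under the other 7 and at thresholds of 1.5-fold and 3-fold. Much of this agreement was fixed in advance. Once medians are set equal, scaling by a constant can hardly move the ratio of a probe set above the floor on both arrays. Choices between probe sets could not move Fam20a or Alpl either, which have 1 probe set each. Ibsp ran from -2.20 to -1.93. Its values as deposited (-1.97) and with the hybridization controls (-1.93) are bounds, because its PP1 signal is then under the floor. Without that shift, Fam20b was at -0.57 as deposited and -0.66 with the hybridization controls, and Alpl at -0.38 and -0.47. Fam20c was then at -0.89 and -0.98, and Smpd3 at -0.49 and -0.53 as bounds.

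Counts of all genes depended on the scaling. At least 2-fold lower and higher were 2883 and 50 as deposited, 3782 and 35 with the controls, 314 and 606 with no floor, and 84 and 111 with the higher floor, against 188 and 366; at 1.5-fold they were 896 and 1291, and at 3-fold 42 and 60. Of the list genes, 6 lower and 3 higher became 31 and 0 as deposited and 39 and 0 with the controls. The higher floor left 3 lower, and the median over probe sets gave 6 higher. With the shift, 190 and 385 genes were lower and higher as deposited and 189 and 388 with the controls. Slc20a1 was at -0.60 without probe sets marked as matching several transcripts and -1.34 by the median over probe sets. Smpd2 had only a bound of 0.47 with the higher floor, its DMSO signal being under it, and Tnfrsf11b kept 2-fold in 5 of 8. All 87 list medians stayed within 0.41, and under a change of scale alone little movement was possible. No paired analysis was possible because each group has 1 array. Signals near the floor limit Ibsp and Smpd3 most.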
